A study of Homo sapiens with 4 samples.

Results

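The genes described here are CTNNB1, which encodes beta-catenin, and target genes of the Wnt/beta-catenin pathway, namely AXIN2, LGR5, NKD1, RNF43, ZNRF3, ASCL2, TCF7, MYC and CCND1. They were chosen by name, as the rows of the count table with these gene symbols, and make up 10 of 63677 counted genes. Of these 10, 8 had enough counts to be tested, among 15116 tested genes, and LGR5 and ASCL2 did not. The question was at what level HCT116 cells carry these RNAs, and whether the levels differed after an antisense oligonucleotide (ASO) against GAA repeats.

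RNA-seq was performed on HCT116, an established human colorectal cancer line known to carry an activating mutation in CTNNB1. The cells received either the anti-GAA ASO or the control ASO by transfection, with 2 libraries for each, and no untreated library was analysed here. The labels give a transfection of 48 h, whereas the study's methods give a shorter one. The replicates carry the numbers 232 (replicate 1) and 234 (replicate 2), and each number appears once with each ASO. The study's methods speak of duplicate experiments, but nothing in the labels says that replicates came from separate cultures, so p-values measure the spread between these libraries, which may be technical in part. All libraries thus share the line, its CTNNB1 mutation and an ASO transfection, and counts per gene do not separate the mutant from the normal allele.

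Beta-catenin has a pair of roles, as a partner of cadherins in cell junctions and as a coactivator of TCF/LEF transcription factors. Without a Wnt signal, a destruction complex built on AXIN and APC marks beta-catenin for degradation, and Wnt binding to Frizzled and LRP receptors stops this. In colorectal cancer the complex is commonly bypassed by mutation of APC or of CTNNB1 itself, so that target genes are switched on in the absence of a ligand. Many of these targets, such as AXIN2, NKD1, RNF43 and ZNRF3, dampen the pathway and form negative feedback loops.

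Counts on genes summed to between 10538284 and 17894953 per library. Of 7 markers of colorectal epithelium, 6 were tested and their summed level lay between 2575 and 2911 CPM, the unit of counts set relative to library size, here scaled by the TMM method, whereas VIL1, the gene of the microvillus protein villin, had 0 to 2 counts. Summed markers of other cell types were low, at 10.3 to 14.8 CPM for fibroblasts, 0.354 to 0.848 CPM for leukocytes and 0.281 to 1.30 CPM for endothelium. Fewer expressing cells and less RNA per cell cannot be told apart in bulk RNA.

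In the control ASO libraries, CCND1, MYC and CTNNB1 were the most abundant of the 10 RNAs per unit of length, the feedback inhibitors were present at middling to low levels, and the stem cell genes LGR5 and ASCL2 were at or near 0. Levels between genes were compared as RPKM, reads per kilobase of all annotated exons in a library scaled as for CPM. CCND1, encoding the G1 cyclin D1, stood at 42.2 and 48.0 RPKM in control replicates 1 and 2, and MYC, encoding a transcription factor that drives growth, at 44.7 and 41.1 RPKM. The order of these genes was not resolved, since their ranges overlapped. CTNNB1 followed with 14.57 and 14.96 RPKM. Its mean of 14.8 ± 0.276 RPKM (SD, n = 2) was higher than that of 79.2% of tested genes, and those of MYC and CCND1 were higher than 91.4% and 91.8%.

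Next in order came RNF43 with a mean of 3.57 ± 0.411 RPKM, TCF7 with 3.35 ± 0.647 RPKM and AXIN2 with 2.99 ± 0.0441 RPKM (SD, n = 2 each). RNF43 overlapped TCF7 and TCF7 overlapped AXIN2, so that these neighbours did not differ beyond their spread. ZNRF3 (2.36 ± 0.653 RPKM) and NKD1 (0.350 ± 0.0198 RPKM) were below them without overlap. NKD1 exceeded 10.03% of tested genes by RPKM, which rests on a length of 17359 nt, and 33.3% by CPM. The choice of length moved CTNNB1, TCF7 and MYC more than 1.5 times. With the length of the canonical transcript (3661 instead of 11759 nt for CTNNB1, 3288 instead of 10093 nt for TCF7, and 3721 instead of 6109 nt for MYC), they reached 47.4 ± 0.888, 10.3 ± 1.99 and 70.4 ± 4.18 RPKM. By that length MYC led, CCND1 (50.7 ± 4.61 RPKM) overlapped CTNNB1, and TCF7 stood above RNF43 (4.99 ± 0.575 RPKM). This choice was added after the data had been seen.

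LGR5, encoding the R-spondin receptor that marks intestinal stem cells, had 0 counts in each of the 4 libraries. A count of 0 allows up to 3 counts, or 0.196 and 0.177 CPM in control replicates 1 and 2, and 0.303 and 0.169 CPM in anti-GAA replicates 1 and 2. ASCL2, encoding a transcription factor of the same stem cells, had 1 and 0 counts with the control ASO and 1 and 2 counts with the anti-GAA ASO. No difference in either gene was detectable at this depth, and no fold is given. These limits, and the intervals within pairs given below, cover counting error only, since the reads carried no molecular identifiers.

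**Figure D1:**
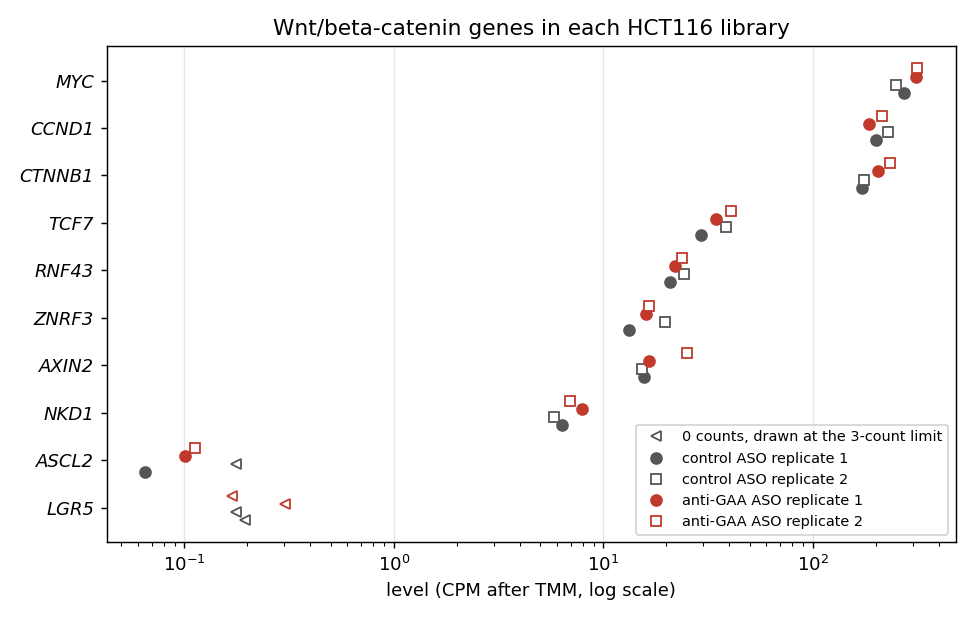
Level of each of the 10 genes in each library, in CPM after TMM scaling on a log axis, with grey for the control ASO and red for the anti-GAA ASO, circles for replicate 1 and squares for replicate 2. Open triangles mark libraries with 0 counts, drawn at the level of 3 counts. MYC, CCND1 and CTNNB1 lay above 171 CPM in each library, whereas LGR5 and ASCL2 had no library above 2 counts.

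The anti-GAA ASO is directed at GAA repeats, so the longest uninterrupted run of GAA, in any frame, was located on the RNA strand of each gene's longest transcript in GENCODE 44 on GRCh38. Sites are printed 5′ to 3′ as the transcript reads, with the run in capitals. They are the longest runs of the genes in which a site is most nearly a repeat, with CCND1 as a shorter case and the TCF7 paralog TCF7L2, which binds beta-catenin in the same way, beside TCF7.
NKD1: gaatcaaagGAAGAAGAAGAAagagagagg
TCF7: caactacggGAAGAAGAAGAggcggtcga
TCF7L2: actatggaAAGAAGAAGAAGAggaaaagg
AXIN2: agaggaactgGAAGAAGAAaaattcccag
CCND1: gcgtgccagtcAAGAAGAAaaaggtttgca
The NKD1 run of 12 nt lies at chr16:50637609-50637620 (plus strand), in the 3′ UTR in exon 10. The TCF7 run of 11 nt lies at chr5:134143594-134143604 (plus strand), in coding sequence of exon 9 of the canonical transcript. The TCF7L2 run of 13 nt lies at chr10:113158024-113158036 (plus strand), in coding sequence of exon 12. The 9 nt of AXIN2 are at chr17:65558656-65558664 (minus strand), in the 5′ UTR in exon 2, and the 8 nt of CCND1 at chr11:69652478-69652485 (plus strand), in the 3′ UTR in exon 5.

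In the remaining genes the longest run was 8 nt in CTNNB1, 7 nt in LGR5 and MYC, and 6 nt in RNF43, ZNRF3 and ASCL2. The CTNNB1 run lies in an intron of the canonical transcript. The median was 7 nt over 14751 tested genes with a transcript sequence. A run of 12 nt or more, as in NKD1, was held by 2.54% of those genes. Over the whole gene, introns included, the longest runs were 20 nt in LGR5, 12 nt in NKD1, 11 nt in RNF43 and TCF7, 10 nt in AXIN2 and ZNRF3, 9 nt in CTNNB1, 8 nt in MYC and CCND1 and 6 nt in ASCL2, and 11.3% of the tested genes held 12 nt or more. The longest run over a gene thus belonged to LGR5, which had no counts.

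With the anti-GAA ASO, none of the 8 tested genes passed the test. By edgeR's quasi-likelihood test with Benjamini-Hochberg adjustment over all tested genes, 0 of 8 had an adjusted p under 0.05, and 0 of 8 had an unadjusted p under 0.05. Each of the 8 had an adjusted p of 0.996 in edgeR, and DESeq2 called 0 of 8. In the same edgeR test 0% of all tested genes were called lower and 0% higher, with a smallest adjusted p of 0.671, whereas 3.46% were lower and 1.02% higher at the unadjusted threshold. DESeq2 called 5 genes lower and 0 higher among all genes. The 95% intervals of the 8 fold changes ran from 0.632-fold to 2.09-fold. Changes of up to that size were not resolved with 2 libraries a group in this fit, which has no term for the replicate number.

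CTNNB1 had 171 and 176 CPM in control replicates 1 and 2, and 206 and 233 CPM in anti-GAA replicates 1 and 2. Both anti-GAA libraries were above both control libraries, and the control libraries lay close together. The log2 fold change was 0.34 with an SE of 0.19 and a 95% interval of −0.11 to 0.78 (edgeR, unadjusted p = 0.117). Within replicate numbers the log2 change was 0.26 (95% counting interval 0.18 to 0.35) in 232 and 0.40 (0.34 to 0.47) in 234.

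AXIN2, encoding the scaffold of the destruction complex and a direct readout of beta-catenin activity, had 15.7 and 15.4 CPM in the controls and 16.5 and 25.1 CPM with the anti-GAA ASO. The higher anti-GAA mean came from replicate 2, as anti-GAA replicate 1 was close to the control libraries. The log2 fold change was 0.42 with an SE of 0.27 and a 95% interval of −0.22 to 1.06, and without anti-GAA replicate 2 it was 0.09. In pair 232 the log2 change of AXIN2 was 0.07 (counting interval −0.23 to 0.36), against 0.70 (0.48 to 0.93) in pair 234.

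NKD1, an inhibitor that acts on Dishevelled, had 6.33 and 5.84 CPM in the controls and 7.88 and 6.91 CPM with the anti-GAA ASO. These groups did not overlap, but the counts were low, at 78 to 123 per library. The log2 fold change of NKD1 was 0.28 (SE 0.29, 95% interval −0.40 to 0.96), with 0.31 in pair 232 and 0.24 in pair 234. Both counting intervals included 0, at −0.13 to 0.76 and −0.15 to 0.64.

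RNF43 and ZNRF3 are related membrane ubiquitin ligases that remove Frizzled receptors from the cell surface. RNF43 had 20.7 and 24.4 CPM in the controls and 22.1 and 23.7 CPM with the anti-GAA ASO. ZNRF3 had 13.3 and 19.8 CPM in the controls and 16.0 and 16.6 CPM with the anti-GAA ASO. In both genes the anti-GAA libraries lay between the control libraries, so the groups overlapped. The log2 fold changes were 0.02 (SE 0.22, 95% interval −0.49 to 0.53) for RNF43 and −0.02 (SE 0.27, −0.66 to 0.62) for ZNRF3. The log2 change of ZNRF3 was 0.26 in pair 232 and −0.25 in pair 234, whereas its control replicates differed by 0.57. The direction of RNF43 turned with scaling to total counts (−0.08), and that of ZNRF3 with a correction for length and GC content (0.08).

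TCF7, encoding the transcription factor TCF-1 through which beta-catenin acts, had 29.2 and 38.4 CPM in the controls and 34.5 and 40.6 CPM with the anti-GAA ASO. The groups overlapped, and replicate 2 was the higher with each ASO. The log2 fold change was 0.15 with an SE of 0.23 and a 95% interval of −0.40 to 0.70, and the pairs gave 0.24 and 0.08. Exons of TCF7 overlap the antisense gene SKP1 by 210 bp, and SKP1 had 233 and 127 CPM in the controls and 316 and 159 CPM with the anti-GAA ASO. Whether reads were counted by strand is not given in the sources used here, so reads of the overlap cannot be assigned, and the part of SKP1 in the TCF7 values was not tested.

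MYC had 273 and 251 CPM in the controls and 313 and 315 CPM with the anti-GAA ASO. Both anti-GAA libraries exceeded both controls and differed from each other by less than the controls did. The log2 fold change of MYC was 0.26 (SE 0.18, 95% interval −0.18 to 0.70), with 0.20 (counting interval 0.13 to 0.26) in pair 232 and 0.33 (0.27 to 0.38) in pair 234. CCND1 had 201 and 229 CPM in the controls and 186 and 214 CPM with the anti-GAA ASO. CCND1 was the lower in both pairs, by similar amounts, although the groups overlapped because replicate 2 was the higher with each ASO. Its log2 fold change was −0.10 (SE 0.20, 95% interval −0.57 to 0.36), with −0.11 (counting interval −0.20 to −0.03) in pair 232 and −0.10 (−0.16 to −0.03) in pair 234. CCND1 shares 497 bp of exon with the antisense gene LTO1, which had 19.4 to 25.8 CPM.

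**Figure D2:**
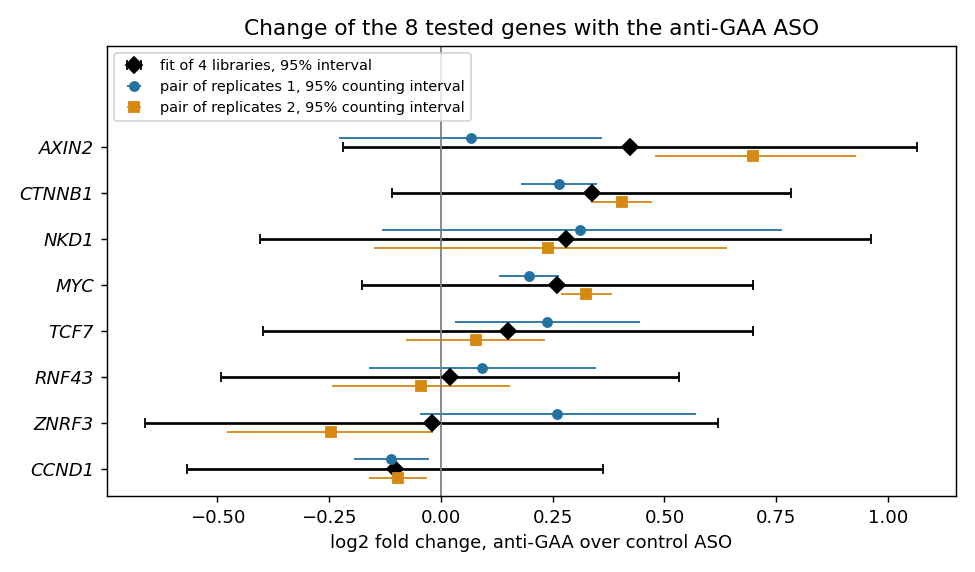
Log2 fold change of the 8 tested genes, anti-GAA over control ASO. Black diamonds with bars give the fit of 4 libraries and its 95% interval, blue circles and orange squares the change within replicates 1 and 2 with 95% counting intervals. The 8 black bars include 0, and AXIN2 and ZNRF3 have pairs far apart.

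Seen as a group, 6 of the 8 genes had a log2 fold change above 0, as did 51.6% of all tested genes. Their median was 0.21, beside 0.013 over all tested genes. It was 0.23 without anti-GAA replicate 1, 0.06 without anti-GAA replicate 2, 0.13 without control replicate 1 and 0.27 without control replicate 2. Fits without a library are unbalanced between replicates, so these medians mix the difference between replicates with that between ASOs. CTNNB1, AXIN2, NKD1, TCF7 and MYC were higher in both pairs, which makes 5 of 8 against 31.8% of tested genes. CCND1 alone was lower in both pairs, 1 of 8 against 30.0%, and RNF43 and ZNRF3 had pairs of opposite sign. With scaling to total counts, 3 of 8 were higher in both pairs. The share of all tested genes under that scaling is not given here, and their median moved from 0.013 to −0.081. Groups that did not overlap were seen in 4 of 8 genes with the anti-GAA ASO higher (15.5% of tested genes) and in 0 of 8 with it lower (16.9%). These counts describe the 8 genes and carry no test.

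The replicates differed as well. Replicate 2 exceeded replicate 1 with both ASOs in 5 of the 8 genes (35.7% of tested genes) and was below it with both in 1, NKD1 (33.8%). The difference between the control replicates was larger than the log2 fold change in 4 of 8 genes, with 0.57 for ZNRF3, 0.39 for TCF7, 0.23 for RNF43 and 0.19 for CCND1. In CTNNB1, AXIN2, NKD1 and MYC the controls differed by 0.04, −0.03, −0.11 and −0.12.

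**Figure D3:**
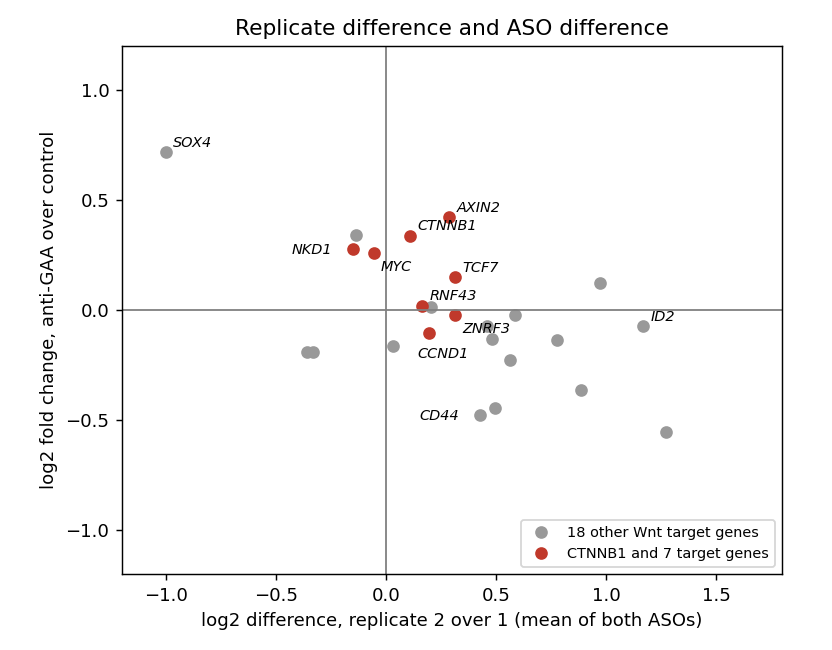
Each tested target gene by its log2 difference between replicate 2 and replicate 1 (mean of both ASOs, horizontal axis) and its log2 fold change with the anti-GAA ASO (vertical axis), with CTNNB1 and the 7 targets described in red and 18 other Wnt target genes in grey. The red points stay within 0.5 of 0 on both axes, whereas ID2 and SOX4, the latter labelled after its values had been seen, differ more between replicates than between ASOs.

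Genes of the rest of the pathway were read from 7 lists by role, which hold 120 genes, of which 89 were tested. None was called (edgeR), and 44 of 89 lay above 0, beside 51.6% of all tested genes. At the unadjusted threshold 2 of 89 were lower and 0 higher, beside 3.46% and 1.02% of all tested genes. DESeq2 called 0 of the 89. The 2, a share near that of all tested genes, were WNT9A, a Wnt ligand, and FRZB, a secreted antagonist that binds Wnt proteins. WNT9A had 19.6 and 16.6 CPM in the controls and 8.49 and 5.96 CPM with the anti-GAA ASO, and FRZB had 34 and 45 counts in the controls and 6 and 8 with the anti-GAA ASO. In both genes the libraries separated by ASO in the same direction in each pair. The log2 fold changes were −1.34 (SE 0.29, edgeR adjusted p = 0.671) for WNT9A and −2.22 (SE 0.48, edgeR adjusted p = 0.671) for FRZB. Without the filter on low counts both were called, with edgeR adjusted p of 0.0146 and 0.0226. That fit called 111 of 28017 genes lower and 5 higher, so the change in calling was not particular to these genes. Their longest GAA runs were 7 nt and 6 nt.

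Among Wnt ligands and genes of their secretion, 15 of 21 were tested, with a median log2 fold change of −0.03 and 5 above 0. WNT16, the ligand with the most RNA per length in the controls, had 31.2 and 85.8 CPM there and 24.8 and 88.4 CPM with the anti-GAA ASO. It differed between replicates with each ASO, and its log2 fold change between ASOs was −0.04 (SE 0.64). Receptors and R-spondins (16 of 21 tested) had a median of 0.0081 with 8 above 0. The Frizzled gene FZD6 had 43.4 and 42.0 CPM in the controls and 36.9 and 43.9 CPM with the anti-GAA ASO. RYK, a Wnt co-receptor, had 37.6 and 35.6 CPM in the controls and 44.4 and 51.1 CPM with the anti-GAA ASO, without overlap, at a log2 fold change of 0.39 (SE 0.20, edgeR unadjusted p = 0.100).

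Of 16 Wnt antagonists, 5 were tested and 4 had 0 counts in every library, and the median was −0.20. The most abundant was DKK1, an inhibitor of LRP receptors and itself a Wnt target, with 594 and 783 CPM in the controls and 599 and 1175 CPM with the anti-GAA ASO. Its highest library was anti-GAA replicate 2, and the log2 fold change of 0.37 (SE 0.34) became −0.20 without it. Each of the 16 genes listed under the destruction complex and Dishevelled, a list that includes associated enzymes and adaptors, was tested. Their median was 0.10, with 14 of 16 above 0 (51.6% of all tested genes) and 9 higher in both pairs (31.8%). With scaling to total counts their median was 0.011 and 8 of 16 were above 0. That scaling also moved the median of all tested genes, from 0.013 to −0.081. CSNK1E, a kinase of the pathway, had 63.9 and 61.1 CPM in the controls and 86.8 and 75.4 CPM with the anti-GAA ASO (log2 fold change 0.38, SE 0.20). DVL1, encoding a Dishevelled protein, had 116 and 71.5 CPM in the controls and 120 and 66.9 CPM with the anti-GAA ASO, so that replicate 1 was the higher with each ASO, at a log2 fold change of −0.013 (SE 0.35).

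Nuclear partners of beta-catenin (15 of 18 tested) had a median of 0.0029 with 8 above 0. TCF7L2 had 156 and 194 CPM in the controls and 131 and 201 CPM with the anti-GAA ASO, and LEF1 had at most 1 count. BCL9, a coactivator that binds beta-catenin, had 9.39 and 8.67 CPM in the controls and 11.6 and 12.3 CPM with the anti-GAA ASO (log2 fold change 0.41, SE 0.25). At cell junctions, CDH1, encoding E-cadherin, had 48.4 and 60.7 CPM in the controls and 34.7 and 48.0 CPM with the anti-GAA ASO. Its log2 fold change was −0.40 (SE 0.25), and −0.18 without anti-GAA replicate 1, a fit unbalanced between replicates. CTNNA1, encoding alpha-catenin, had 328 and 442 CPM in the controls and 352 and 467 CPM with the anti-GAA ASO. The 4 junction genes had a median of 0.07, and 3 of 4 lay above 0.

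Further target genes of the pathway mostly had log2 fold changes below 0. Of 24 listed, 18 were tested, 5 lay above 0 (51.6% of all tested genes), and the median was −0.13. In both pairs 2 were higher (31.8%) and 10 lower (30.0%). The number above 0 changed on leaving out 1 library, to 13 of 18 without control replicate 2 and 2 of 18 without anti-GAA replicate 2. Such fits are unbalanced between replicates, so these 2 counts mix the difference between replicates with that between ASOs. CD44, an adhesion receptor, had 312 and 463 CPM in the controls and 251 and 306 CPM with the anti-GAA ASO. Its log2 fold change was −0.48 (SE 0.25, edgeR unadjusted p = 0.0997), and −0.16 in the unbalanced fit without control replicate 2. ID2, an inhibitor of helix-loop-helix transcription factors, had 237 and 539 CPM in the controls and 229 and 509 CPM with the anti-GAA ASO. SOX4, encoding a transcription factor and singled out after its values had been seen, had the change farthest from 0 of the 18, with 64.1 and 32.0 CPM in the controls and 106 and 52.8 CPM with the anti-GAA ASO. Its groups overlapped, while both pairs gave a log2 change of 0.72 (fit 0.72, SE 0.43, edgeR adjusted p = 0.996). Replicate 2 exceeded replicate 1 with both ASOs in 13 of these 18 genes (35.7% of all tested genes).

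**Figure D4:**
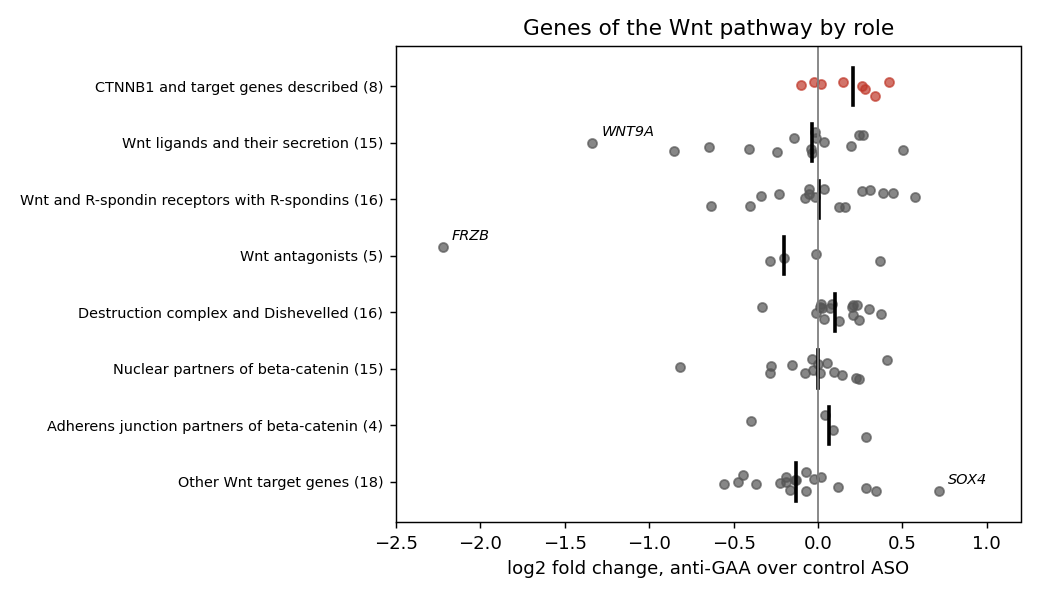
Log2 fold change, anti-GAA over control ASO, of each tested gene of the Wnt pathway by role, 1 point a gene, with the number tested in brackets and the median of each role as a black bar. CTNNB1 and the targets described are in red with a median of 0.21, other Wnt targets have a median of −0.13, and WNT9A and FRZB lie far below 0.

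Over all tested genes, longer GAA runs went with lower values after the anti-GAA ASO in the main fit, which has no length or GC offsets. Whether transcript length or GC content has a part in this was not tested. The median log2 fold change was 0.03 in 11786 genes with a run under 9 nt, −0.04 in 2591 genes with 9 to 11 nt and −0.16 in 374 genes with 12 nt or more, and 46.0%, 55.8% and 71.4% of them lay below 0. NKD1, with 12 nt, and AXIN2 and TCF7, with 9 and 11 nt, had log2 fold changes of 0.28, 0.42 and 0.15. These 3 genes were thus above the medians of their classes, while the 95% interval of each included the class median. Among the named pathway genes, CD44, with a run of 11 nt, stood at −0.48 (−0.16 in the unbalanced fit without control replicate 2). TCF7L2, with 13 nt, stood at −0.07, and CSNK1E, with 9 nt, at 0.38. Further pathway genes with runs of 11 nt or more lie outside the naming rule and are not described.

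Promoter sequences of 300 nt (250 nt before to 50 nt after the start, RefSeq, GRCh38.p14) were at hand for CTNNB1, TCF7 and RNF43, 5 promoters in all. They were searched on both strands for the core TCF/LEF motif, CTTTG followed by 2 letters that are each A or T. A match was found in 1 of 5, a promoter of TCF7, beside 13.8% of 35116 promoters. It is shown because TCF7 is itself a TCF gene. It lies 50 nt before the start, at chr5:134123568-134123574, with the motif on the minus strand (CTTTGTT) and the matching letters of the plus strand in capitals.
TCF7 promoter: ggccccactggAACAAAGgaggagagagg
The match describes these letters and does not show binding.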

How the data were processed

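RNA-seq of 4 HCT116 libraries was analysed. The authors used Trimmomatic for trimming and STAR for alignment to hg19, discarded GL contigs and deposited raw counts per Ensembl gene from featureCounts, with 0 columns unused here. The annotation release, whether strand was used and how reads matching several genes were handled are not given in the sources used here. The labels name a total RNA kit and the methods a stranded mRNA kit.

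Genes that passed filterByExpr were compared after TMM scaling with the quasi-likelihood F-test of edgeR, in which the ASO was the sole term (R 4.3.3, edgeR 4.0.16, limma 3.58.1, DESeq2 1.42.0, Python 3.11.15). The script was first tested on simulated counts with less spread than these libraries (common dispersion 0.0549) and no replicate difference. That test checked the code and does not show how the intervals behave in these libraries. The SE is the log2 fold change divided by the root of F. Changes within a pair are differences in log2 CPM (prior count 2), and intervals are at 95%. Symbols, lengths and sites came from GENCODE 44 on GRCh38, with 52181 of 63677 identifiers matched and no coordinate taken from hg19. RPKM used the union of exons.

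The genes and lists were chosen with earlier results of these data known. Named are the 10 genes and, from each of 7 role lists, the tested gene with the highest mean RPKM in the controls and that with the smallest p, plus any called. SKP1, LTO1, LEF1, VIL1 and SOX4 lie outside this rule and were picked with their values known.

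Alternatives were DESeq2, its size factors, total-count scaling, other filters, leaving out each library, length and GC offsets and the replicate number as a block. Canonical transcript length and library totals over all genes, alone and with the block, were added with the data in view.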

Additional observations from a re-analysis of the deposited data

How the results depend on the processing

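Replicate numbers pair the libraries by label only, and nothing in the labels ties a number to a shared batch or day. Deviations of libraries with the same number correlated with r = 0.564 across 15116 genes, which are not independent replicates. With the replicate block, 207 genes were called lower and 51 higher (edgeR), none of them among the 8 tested genes, of which 1 (CTNNB1, log2 fold change 0.33, SE 0.14, edgeR adjusted p = 0.242) had an unadjusted p under 0.05. With the block and length and GC offsets the calls were 275 and 161, and with the block and library totals over all genes, an alternative added after the data had been seen, 475 and 168, each with 2 of the 8 genes higher at the unadjusted threshold. In these 3 fits 9.70%, 8.12% and 10.4% of all tested genes were lower at that threshold and 6.86%, 10.3% and 7.18% higher. Under each of these 3 paired fits, 2 pathway genes were called lower (WNT9A and FRZB, edgeR adjusted p = 0.00643 and 0.0228 with the block alone) and 1 higher (SOX4, named after its values were seen, 0.0188), and 8, 6 and 8 of 89 pathway genes were lower and 6, 11 and 6 higher at the unadjusted threshold.

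DESeq2 called 5 genes lower. Without a filter, 111 of 28017 genes were called lower and 5 higher, with 2 pathway genes among those lower. At the unadjusted threshold 6 pathway genes were lower and 1 higher in that fit, beside 3.62% and 1.09% of all its genes. It also takes in pathway genes too low for the main fit. The length and GC offsets alone gave 2 pathway genes lower and 1 higher at that threshold, beside 2.86% and 1.40% of tested genes. Leaving out 1 library gave 0 to 16 genes lower and 0 to 3 higher, with 16 and 2 without control replicate 1 and 2 and 3 without anti-GAA replicate 2, and 2 to 7 pathway genes lower and 1 to 2 higher at the unadjusted threshold. The lone library left in a group is then assumed to vary like the others. For that reason the counts from fits without a library were not set against a share of all tested genes, and no conclusion is drawn from them. With scaling to total counts 3 of the 8 genes were higher in both pairs, and the median of all genes was −0.08.

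Of 112 log2 fold changes of the 8 genes under the alternatives, 102 kept their sign and 10 turned, and of 196 for the named pathway genes 15 turned and 8 passed the threshold. RNF43 was −0.075 with total-count scaling and −0.10 to 0.15 without single libraries. ZNRF3 was 0.083 with the offsets, 0.087 with the block as well, and −0.29 to 0.30 without single libraries. On leaving out libraries, TCF7 ranged from −0.044 to 0.37, CCND1 from −0.20 to 0.0017, WNT16 from −1.24 to 0.87, FZD6 from −0.21 to 0.048, DKK1 from −0.20 to 0.78, DVL1 from −0.48 to 0.37, TCF7L2 from −0.41 to 0.21, ID2 from −0.76 to 0.64, CD44 from −0.74 to −0.16, CDH1 from −0.65 to −0.18 and CTNNA1 from −0.12 to 0.33. DVL1 was 0.023 with the offsets and 0.030 with the block as well, and CTNNA1 −0.0063 with total-count scaling. The causes were not tested. LGR5 and ASCL2 had too few counts to be tested at this depth.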
